A study of Sus scrofa with 2 samples.

Results

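The miR-130 and miR-301 microRNAs (miRNAs) were followed in Junmu-1 pigs, a white breed, in the whole testis at 180 days of age (sexually mature) and at 30 days (sexually immature). For each age the RNA of 3 boars went into a single pool and 1 small RNA library, called mature and immature below, so there is no spread between animals and no test between the ages. The labels name no treatment and no genotype. The mature library held 852209 miRNA-matched reads in 28643 distinct tags (sequences), and the immature library held 7525725 reads in 82288 tags. Members are all tags whose deposited miRNA name is miR-130, miR-130a, miR-130b, miR-301, miR-301a or miR-301b once species prefix, copy number and arm are dropped. This rule uses names and no read counts. It found 726 distinct tags, 158 in the mature list and 677 in the immature list. They fall into 8 combinations of name and arm, out of 1383 in both lists together. Of the 8, 7 reached 20 reads over both libraries, the minimum used for a ratio to be counted, and miR-130a-5p with 19 reads did not.

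A miRNA guides the Argonaute protein to messenger RNAs, mostly through its seed (bases 2 to 8, counted from 1 at the 5′ end), and lowers their translation and stability. A hairpin precursor can give a mature miRNA from either arm, 5p or 3p, and the arm with fewer reads was long marked with a star. The miR-130 and miR-301 miRNAs share 1 seed on the 3p arm. In mouse and human cells miR-130 represses PPARG, the main regulator of fat cell formation, and in human endothelium miR-130a represses the homeobox genes MEOX2 and HOXA5. In human, miR-130b and miR-301b lie side by side in a cluster, and miR-301a lies in an intron of SKA2. In the RefSeq annotation of the pig assembly Sscrofa11.1, 2 of the 4 members matched by name, miR-130a next to YPEL4 and miR-130b between PPIL2 and SDF2L1.

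The most read tag of each 3p arm is printed as the lists give it, with T for U and the seed in capitals, because the members are told apart only by the bases after the seed. The last line is the human miR-301b entry of the lists.
miR-130a-3p: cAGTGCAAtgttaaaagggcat
miR-130b-3p: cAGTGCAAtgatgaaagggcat
miR-301a-3p: cAGTGCAAtagtattgtcaaagc
miR-301b-3p: cAGTGCAAtagtattgtcaaagcat
miR-301b entry: cAGTGCAAtgatattgtcaaagc
The 4 members share their first 9 bases. Over 22 bases miR-130a and miR-130b differ at 2 positions, T11A and A13G, where the miR-130a base stands first. miR-130a and miR-301a differ at 10 of the 22 bases. miR-301a and the miR-301b entry differ at A10G and G11A. The most read tag named miR-301b-3p therefore carries the miR-301a sequence with 2 more bases at its 3′ end. It was matched to a chicken entry that has this sequence under the name miR-301b.

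The 5p arms are shown because their seeds differ between the members, unlike those of the 3p arms.
miR-130a-5p: gCTCTTTTcacattgtgctact
miR-130b-5p: aCTCTTTCcctgttgcactact
miR-301b-5p: gCTCTGACtttattgcactact
miR-301-5p: gCTCTGACtttattgcactac
The last 2 names stand for 1 sequence, with or without its final base. The miR-301b-5p entry is from chicken, whose miR-301b name also holds the miR-301a sequence on the 3p arm. The name of this 5p sequence therefore does not show whether it is miR-301a or miR-301b. The list name of miR-301-5p is a platypus miR-301*, and the platypus entry called miR-130a, without an arm, held the 5p tags of miR-130a.

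The family was carried by miR-130a-3p in both libraries, with a much lower level of miR-130b-3p and traces of the miR-301 forms. Abundances are given as RPM, reads per 1000000 miRNA-matched reads, and mature-to-immature ratios come with exact 95% intervals for counting error alone. miR-130a-3p had 1718 reads in the mature library and 20002 in the immature library, which is 2016 RPM in mature testis (1922 to 2113) and 2658 RPM in immature testis (2621 to 2695). It ranked 54th of all names and arms by RPM in mature testis and 42nd in immature testis. Its ratio was 0.758 (0.722 to 0.797), a 1.32-fold lower share of the miRNA pool in the mature library (1.25 to 1.39).

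The ratio of miR-130b-3p was above 1, with an interval that includes 1. It had 189 reads (222 RPM, 191 to 256) in the mature library and 1431 reads (190 RPM, 180 to 200.3) in the immature library. The ratio was 1.17 (0.997 to 1.36).

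The miR-301 forms were close to the lower limit of the mature library, where 3 reads correspond to 3.52 RPM, against 0.399 RPM in the immature library. miR-301a-3p had 3 reads in mature testis and 37 in immature testis, a ratio of 0.716 (0.141 to 2.26). miR-301b-3p had 1 read in mature testis and 32 in immature testis, with a ratio of 0.276 (0.00678 to 1.65). The 5p form miR-301b-5p had 11 reads in mature testis and 118 in immature testis, a ratio of 0.823 (0.400 to 1.53), and miR-301-5p had 5 reads in mature and 37 in immature testis, a ratio of 1.19 (0.366 to 3.04). All of these intervals include 1 and reach beyond 2-fold in at least 1 direction. This holds for RPM of miRNA-matched reads, and other scalings place some or all of the miR-301 forms lower in mature testis.

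The other 5p arms were scarce as well. miR-130b-5p had 8 reads (9.39 RPM) in mature testis and 62 reads (8.24 RPM) in immature testis, a ratio of 1.14 (0.471 to 2.39). miR-130a-5p had 1 read in mature testis and 18 in immature testis, with a ratio of 0.491 (0.0118 to 3.11).

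**Figure D1:**
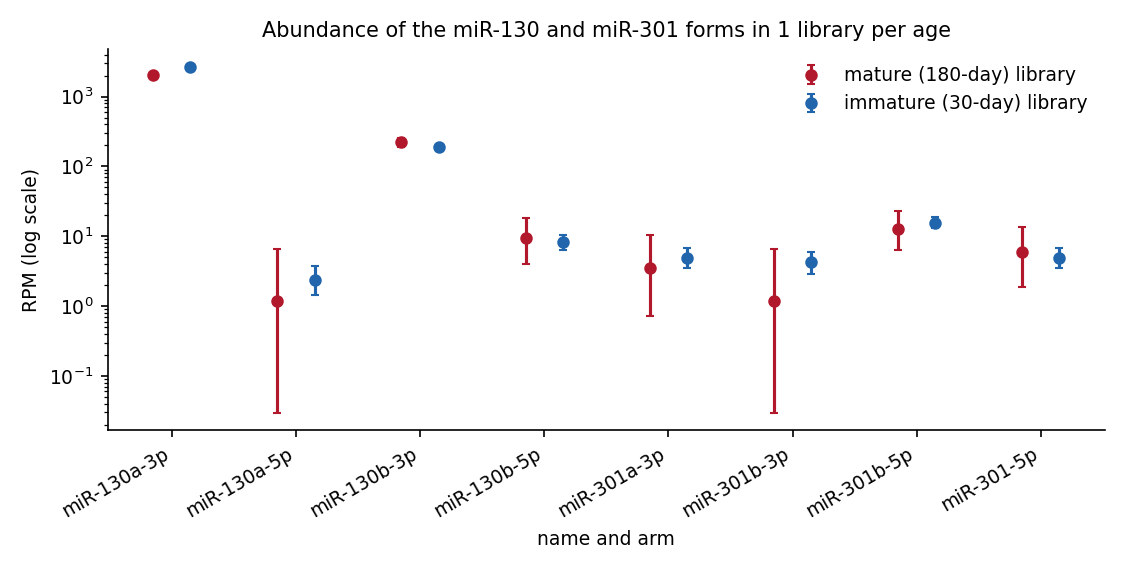
RPM of the 8 names and arms on a log axis, with the mature library in red to the left of the immature library in blue; points are 1 library each and bars are exact 95% counting intervals. Only miR-130a-3p and miR-130b-3p lie above 100 RPM, and the bars of the 2 libraries separate for miR-130a-3p alone.

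Summed over the 3p arms, the family had 1911 reads (2242 RPM) in the mature library and 21502 reads (2857 RPM) in the immature library, a ratio of 0.785 (0.749 to 0.822). It made up 0.224% of the miRNA pool in mature testis (0.214 to 0.235%) and 0.286% in immature testis (0.282 to 0.290%). Calls needed a ratio of at least 2 (higher) or at most 0.5 (lower), with 1 outside the interval. By this rule 0 of the 7 forms were higher and 0 lower, while 41.6% of all 469 names and arms tested were called, 29.4% higher and 12.2% lower. With 1 library per age there is no p-value, and the interval of 1 of the 7 forms, miR-130a-3p, excluded 1. The median log2 ratio was -0.28 over the 7 forms and 0.22 over all 469.

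The size of these ratios depends on what the reads are scaled to. Under the other scalings given below, miR-130a-3p and the family's 3p sum stayed below 1. miR-130b-3p, miR-130b-5p and miR-301-5p moved from above 1 to below it. Tag numbers in both lists follow falling read counts, and read as ranks they give lowest whole-library totals of 12035098 reads in mature testis and 12711254 in immature testis. The leading miR-130a-3p tag carried number 1209 in the mature list and 118 in the immature list. Per read of these totals every log2 ratio shifts by -3.06, miR-130a-3p has a ratio of 0.0907 (0.0863 to 0.0953) and miR-130b-3p one of 0.139 (0.119 to 0.162). By that scaling 7 of the 7 forms were called lower, beside 84.4% of all names and arms, and 0 were called higher, beside 5.76%. TMM scaling, a trimmed mean of log ratios weighted by read number, shifts the log2 ratios by -0.91, which puts their median over all 469 at -0.70, and gives 0.403 (0.383 to 0.423) for miR-130a-3p and 0.620 (0.530 to 0.722) for miR-130b-3p. With it 3 of the 7 forms were called lower, miR-130a-3p, miR-301b-3p and miR-301b-5p, and 0 higher, beside 34.3% and 15.4% of all. Median-of-ratios scaling gave the same counts of forms, beside 34.3% lower and 16% higher of all. In whole testis, fewer cells of a type and less RNA per cell cannot be told apart.

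**Figure D2:**
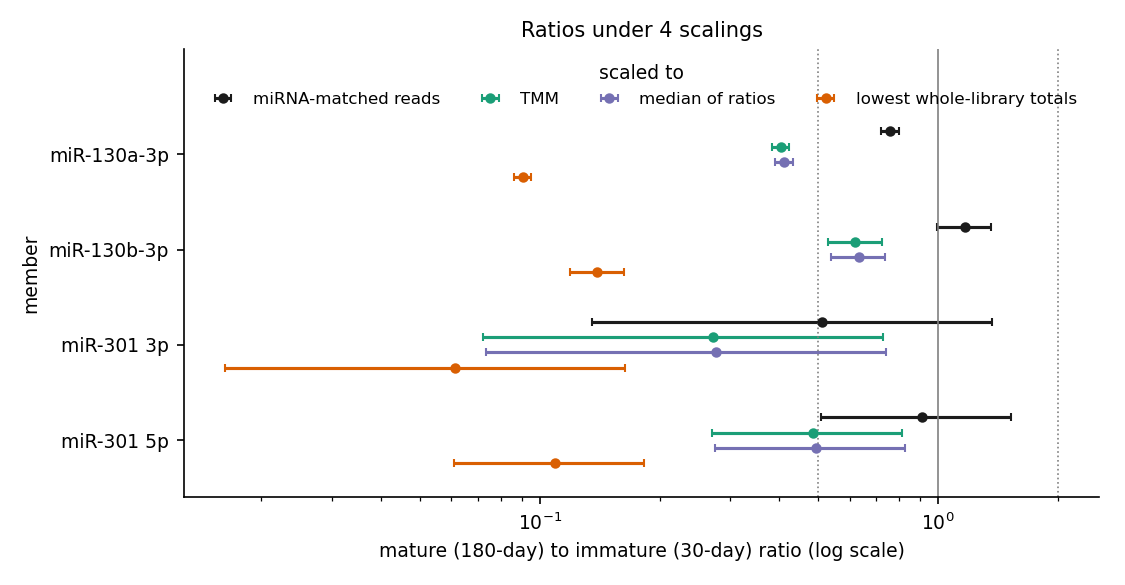
Mature-to-immature ratio (log axis) for miR-130a-3p, miR-130b-3p and the summed miR-301 arms under 4 scalings, in the order black, green, purple and orange from top to bottom; bars are exact 95% counting intervals, the solid line marks 1 and the dotted lines 2-fold. The point of miR-130b-3p lies to the right of that of miR-130a-3p, by the same distance for every scaling, because a scaling shifts all ratios alike.

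The ratio between members needs no scaling, since both are counted in the same libraries. The ratio of miR-130b-3p was 1.54 times that of miR-130a-3p (exact conditional interval 1.30 to 1.81). miR-130b-3p took 9.89% of the family's 3p reads in the mature library (8.59 to 11.3%) and 6.66% in the immature library (6.33 to 7.0%). miR-130a-3p took 89.9% in mature testis (88.5 to 91.2%) and 93.0% in immature testis (92.7 to 93.4%). Of the 6 pairs of 3p arms compared, this was the only interval that excluded 1. The other 5 pairs involve a miR-301 form, with values between 0.237 and 0.944. Their lowest lower bound is 0.00578, for miR-301b-3p over miR-130b-3p, and their highest upper bound is 5.13, for miR-301b-3p over miR-301a-3p. No animal replicate stands behind the 1.54-fold difference, so its spread between boars is unknown.

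Full-length tags that carry 1 of the 2 base differences between miR-130a and miR-130b were scarce. They had 0 reads for T11A and 0 for A13G in the mature library, and 2 and 6 reads in the immature library, against 130 reads of the full-length miR-130b-3p tag in the mature and 908 in the immature library.

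The 3′ ends of miR-130a-3p differed between the libraries, and the ends of both miR-130 members differed from each other. The full-length tag of miR-130a-3p, with 22 nucleotides, held 965 of 1718 reads in mature testis, 56.2% (53.8 to 58.5%), and 9135 of 20002 in immature testis, 45.7% (45.0 to 46.4%). Tags cut short at the 3′ end by 1 to 4 bases held 11.8% in mature testis (10.3 to 13.4%) and 17.7% in immature testis (17.2 to 18.3%). Tags with a changed last base held 12.7% in mature testis (11.2 to 14.4%) and 16.7% in immature testis (16.2 to 17.3%). Lengthened tags held 9.60% in mature testis (8.25 to 11.1%) and 9.09% in immature testis (8.69 to 9.50%), intervals that overlap.

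A few tags make up most of these ends, and they are printed with the last base in capitals because they differ only there or in length.
miR-130a-3p T22C: cagtgcaatgttaaaagggcaC
miR-130a-3p T22A: cagtgcaatgttaaaagggcaA
miR-130a-3p 20 nt: cagtgcaatgttaaaagggC
miR-130b-3p T22A: cagtgcaatgatgaaagggcaA
The T22C tag had 185 reads in mature testis, 10.8% of miR-130a-3p (9.34 to 12.3%), and 3027 in immature testis, 15.1% (14.6 to 15.6%). The 20-nucleotide tag had 132 reads in mature testis, 7.68% (6.47 to 9.05%), and 2261 in immature testis, 11.3% (10.9 to 11.8%). The T22A tag was the exception, with 34 reads or 1.98% in mature testis (1.37 to 2.75%) and 299 reads or 1.49% in immature testis (1.33 to 1.67%), intervals that overlap.

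As single tags, the forms of miR-130a-3p had unequal ratios. The ratio in RPM was 0.933 (0.872 to 0.997) for the full-length tag, 0.540 (0.463 to 0.626) for the T22C tag and 0.516 (0.429 to 0.615) for the 20-nucleotide tag. It was 1.00 (0.683 to 1.43) for the T22A tag. Tags whose last base was changed and that were lengthened as well had 17 reads in mature and 488 in immature testis, a ratio of 0.308 (0.178 to 0.498). The full-length tag of miR-130b-3p had 130 reads in mature testis, 908 in immature testis and a ratio of 1.26 (1.04 to 1.52). Between the full-length tags alone, the ratio of miR-130b-3p was 1.36 times that of miR-130a-3p (1.11 to 1.65).

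miR-130b-3p ended differently, although its last 9 bases are those of miR-130a-3p. Its full-length tag held 68.8% of 189 reads in mature testis (61.7 to 75.3%) and 63.5% of 1431 reads in immature testis (60.9 to 66.0%). The T22C change had 1 read in each library, 0.529% (0.0134 to 2.91%) in mature testis and 0.0699% (0.00177 to 0.389%) in immature testis. The 20-nucleotide tag had 0 reads of 189 in mature testis (0 to 1.93%), and 17 reads or 1.19% (0.694 to 1.90%) in immature testis. Its most read changed end was T22A, with 7 reads or 3.70% (1.5 to 7.48%) in mature testis and 113 reads or 7.90% (6.55 to 9.42%) in immature testis. In the mature library the odds of a full-length tag were 1.72 times higher in miR-130b-3p than in miR-130a-3p (1.23 to 2.42), and in the immature library 2.07 times higher (1.85 to 2.31).

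**Figure D3:**
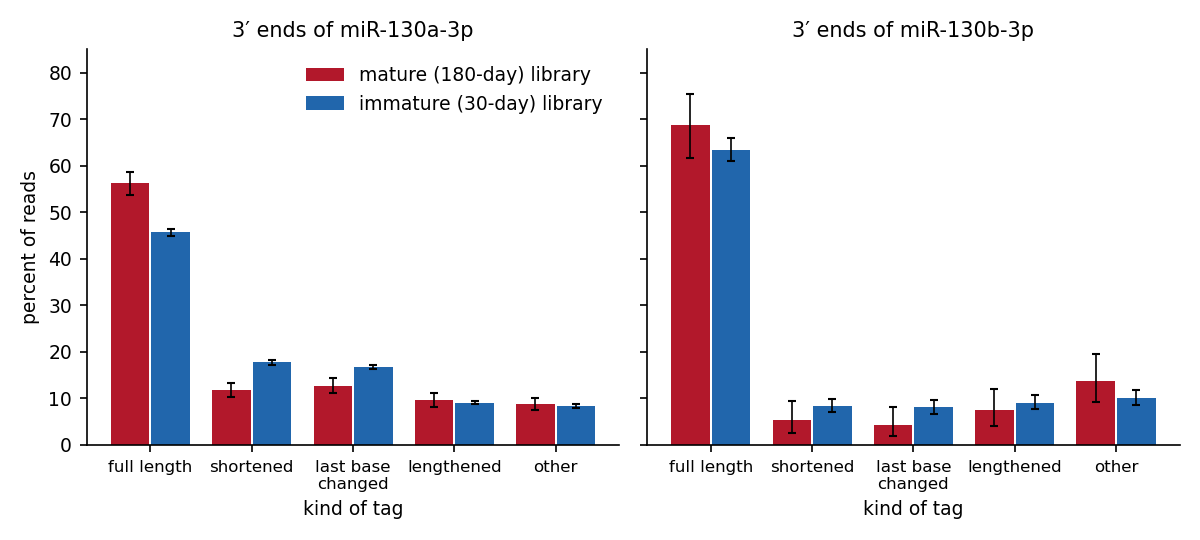
Share of reads by kind of 3′ end for miR-130a-3p (left) and miR-130b-3p (right), with the mature library in red left of the immature library in blue; bars start at 0 and error bars are exact 95% counting intervals. In miR-130a-3p the full-length tag takes 56.2% in mature testis and 45.7% in immature testis, while shortened tags and those with a changed last base take less in mature testis.

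The same shares were taken for the 130 names and arms with 100 or more reads in mature testis and 1000 or more in immature testis, each against its own leading tag. The leading tag had a higher share in mature testis in 46 of them and a lower one in 84, with medians of 44.7% in mature testis and 46.5% in immature testis. miR-130a-3p had the 6th highest gain, 10.5 percentage points, and miR-130b-3p the 22nd, 5.33 points. Shortened tags had a lower share in mature testis in 78 of the 130. A C in place of the last base was more frequent than in miR-130a-3p in 1 of the other miRNAs, miR-30e*, at 20.6% in the mature library and 24.1% in the immature library. The median share of this change over the 130 was 0 in mature testis and 0.0534% in immature testis. These tags were singled out after their values were seen.

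**Figure D4:**
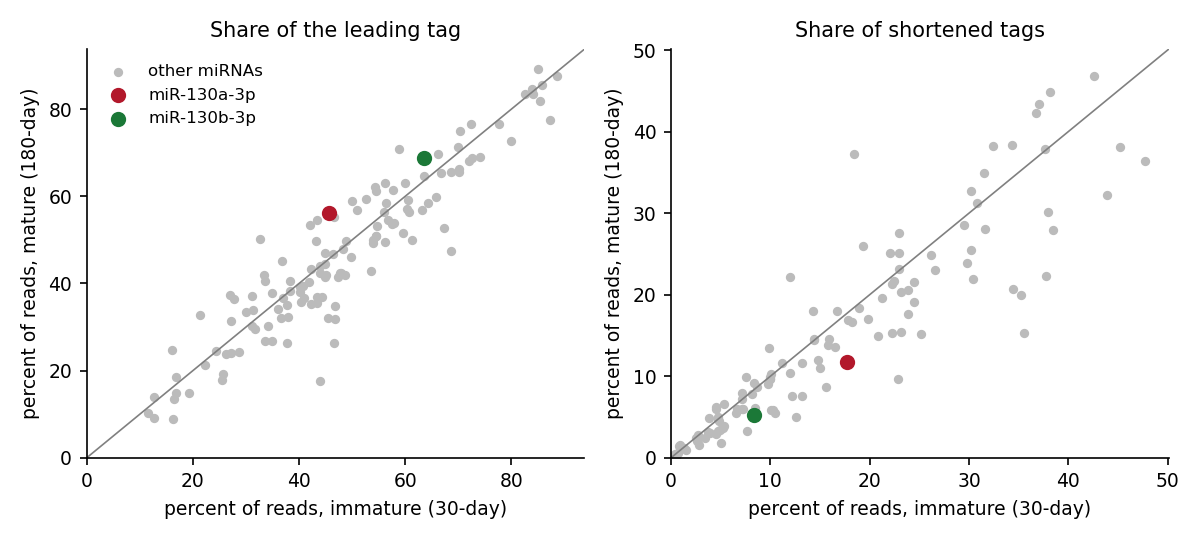
Share of the leading tag (left) and of shortened tags (right) in the mature library (vertical axis) against the immature library (horizontal axis), in percent of a miRNA's reads, for 130 names and arms; the line marks equal shares. miR-130a-3p in red lies above the line on the left, at 56.2% in the mature and 45.7% in the immature library, and below it on the right, at 11.8% in the mature and 17.7% in the immature library.

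The 5′ start, which sets the seed, differed by less than counting error between the libraries. Of the miR-130a-3p reads 98.2% began at the leading base in the mature library (97.4 to 98.8%) and 98.2% in the immature library (98.0 to 98.4%). For miR-130b-3p these shares were 96.3% in mature testis (92.5 to 98.5%) and 96.2% in immature testis (95.1 to 97.2%). Starts 1 base further in held 1.46% of miR-130a-3p in mature testis (0.944 to 2.14%) and 1.58% in immature testis (1.41 to 1.76%). For miR-130b-3p they held 3.70% in mature testis (1.5 to 7.48%) and 3.35% in immature testis (2.48 to 4.42%).

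The members differed in which arm was read. miR-130a was almost wholly 3p, with 1 read of 1719 on the 5p arm in mature testis, 0.0582% (0.00147 to 0.324%), and 18 of 20020 in immature testis, 0.0899% (0.0533 to 0.142%). The 5p share of miR-130b was 4.06% in mature testis (1.77 to 7.84%) and 4.15% in immature testis (3.20 to 5.29%). The miR-301 names leaned to the 5p arm, with 16 of 20 reads in mature testis, 80.0% (56.3 to 94.3%), and 155 of 224 in immature testis, 69.2% (62.7 to 75.2%). Within each of the 3 the intervals of the 2 libraries overlap. Arm shares rest on ligated and amplified reads and are not molecule numbers.

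**Figure D5:**
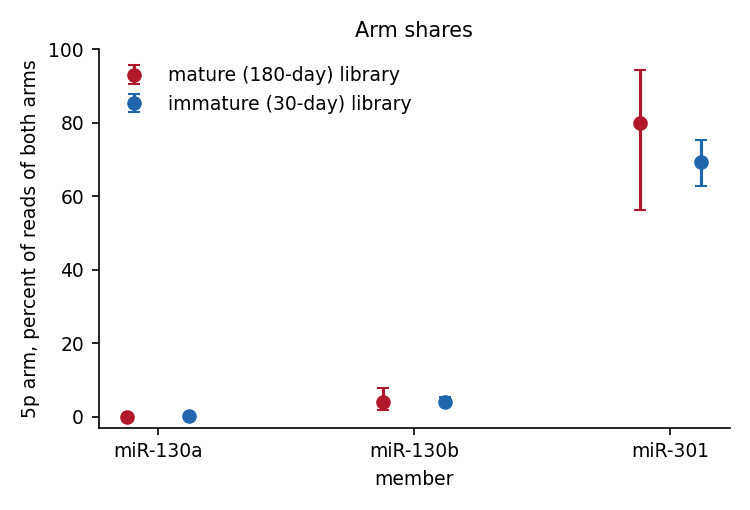
Share of the 5p arm among reads of both arms, in percent, for miR-130a, miR-130b and all miR-301 names, with the mature library in red left of the immature library in blue and exact 95% counting intervals. The miR-301 names stand at 80.0% in the mature and 69.2% in the immature library, and miR-130b at 4.06% in the mature and 4.15% in the immature library.

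Counting the miR-301 tags by sequence in place of name left nearly all of the 3p reads to miR-301a. The miR-301a-3p sequence then had 4 reads in mature testis and 66 in immature testis, and the miR-301b-3p sequence had 0 in mature and 3 in immature testis. The 5p sequence had 16 reads in mature and 155 in immature testis.

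Relatives with the same seed added little. miR-454 and miR-454b had 0 reads in mature testis and 1 read each in immature testis, and miR-454*, the arm without the seed, had 3 reads in mature and 5 in immature testis. miR-130c, known from platypus, had 2 reads in mature and 17 in immature testis. The names miR-3666, miR-4295 and miR-721 had no tag in the lists. In miR-148a, miR-148b and miR-152 the first 6 seed bases begin at position 3 in place of 2. miR-148a had 1931 RPM in mature testis and 3874 RPM in immature testis, a ratio of 0.499 (0.474 to 0.524), and miR-152 had 1969 RPM in mature and 3382 RPM in immature testis, a ratio of 0.582 (0.554 to 0.612). miR-148b-3p, at 0.862 (0.790 to 0.938), was the nearest of these to the miR-130 and miR-301 family.

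By the log2 ratio over the 2 libraries, -0.35 for the family's 3p sum, the 3 most similar of 148 other names and arms with 1000 or more reads were miR-322 at -0.35, miR-423-5p at -0.35 and miR-125b* at -0.32. With 1 value per age this likeness is only that of a single ratio.

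Markers of testis cell types differed between the libraries beside these ratios. The miR-34b/c and miR-449a/b names, known from meiotic and later male germ cells, summed to 35278 RPM in mature testis and 11.4 RPM in immature testis, led by miR-34c, and 8 of the 8 forms with 20 or more reads were called higher. Of the other leaders, miR-202-5p of gonadal soma had a ratio of 1.70, miR-199a-3p of mesenchymal cells 0.652, miR-126-5p of endothelium 1.90, miR-143 of smooth muscle 2.76, miR-451 of red blood cells 2.46 and miR-150 of white blood cells 0.836. The gonadal soma list was mixed, with miR-202* at 2.39 but miR-202 at 0.667 and miR-202-3p at 0.628. It summed to 110872 RPM in mature testis and 68481 RPM in immature testis. Each name on these 7 lists had reads in both libraries. The red blood cell list was mixed as well, with miR-451 the 1 of 3 forms tested that was called higher. Its miR-144 and miR-144* had ratios below 1, with intervals that include 1. This list summed to 3857 RPM in mature testis and 1633 RPM in immature testis. In the endothelial list miR-126 was at 1.53 (1.28 to 1.82) but miR-126-3p at 0.681 (0.434 to 1.02), and no form was called. In the white blood cell list 1 of 5 forms tested was called higher. Its miR-142-5p was at 1.33, miR-142 at 0.958 and miR-142-3p at 0.960, with intervals that include 1. Summed, the endothelial list had 629 RPM in mature testis and 381 RPM in immature testis, the white blood cell list 194 RPM in mature and 168 RPM in immature testis, and the mesenchymal list 40571 RPM in mature and 62556 RPM in immature testis. The mesenchymal list covers only the names miR-199a, miR-199b and miR-214. Tags named miR-199 without a letter are outside it, with 17297 RPM in mature and 38163 RPM in immature testis, a ratio of 0.453. miR-199* at 0.336 and miR-199-3p at 0.250 are outside it too. The part of these cell types in the ratios of miR-130a-3p and miR-130b-3p was not tested.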

How the data were processed

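Per the labels' protocols, RNA from 3 boars was combined per age, enriched for small RNA on a denaturing gel, and made into a library by adapter ligation and 15 rounds of PCR for Illumina 1G sequencing. The authors deposited, for each library, distinct tags with a raw read count, a sequence and 1 miRNA name from any species, with up to 2 mismatches. The aligner, like the build, is not given in the sources used here. An alignment score was also deposited and used only to decide whether a tag matched its deposited name better than the family.

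Counts were summed by name, without species prefix and copy number, and by arm. For members the arm was read from the entry's sequence. RPM used all miRNA-matched reads. Intervals are exact (Clopper-Pearson, 95%, scipy 1.17.1), and conditional for odds ratios. Only the intervals and calls of the mature-to-immature ratios were tested on simulated data, which were drawn with counting error alone. No molecular identifiers are named, so reads are not independent molecules, and intervals and floors of 3 reads cover counting error only. TMM factors came from edgeR 4.0.16. Alternatives were the scaling, perfect tags, tags of 2 or more reads, counting by sequence, the fold rule and the read minimum.

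The names given are the members, relatives by seed, the 3 miRNAs nearest in ratio and the most read marker of each list; miR-30e* and the 3′ forms were chosen after their values were seen. Members and lists were chosen with earlier results of these data known.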

Additional observations from a re-analysis of the deposited data

How the results depend on the processing

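No paired analysis was possible because each age has 1 library. Over 3 alternatives for the choice of tags, the ratio of miR-130b-3p over that of miR-130a-3p stayed between 1.48 and 1.52, and the full-length tags alone, chosen after seeing the data, gave 1.36. Scaling moved the ratio of miR-130a-3p to 0.0907 (whole library), 0.403 (TMM) and 0.411 (median of ratios), that of miR-130b-3p to 0.139, 0.620 and 0.632, and that of the family's 3p sum to 0.0939, 0.417 and 0.425. Forms called lower numbered 7, 3 and 3 under these scalings, and over all names and arms 27, 72 and 75 were higher and 396, 161 and 161 lower, against 138 and 57. With tags free of mismatches and unmatched bases, the ratio was 0.909 for miR-130a-3p and 0.941 for the family, 69 names were higher and 36 lower, the immature shares of miR-130a-3p and miR-130b-3p in the 3p reads were 92.3% and 7.37%, the immature 5p share of miR-301 was 77.5%, and by construction the leading start of both miR-130 members held 100% of reads at both ages. With 100 or more reads 77 were higher, and with no minimum 252. With tags of 2 or more reads, miR-301a-3p, miR-301b-3p and miR-130a-5p had a ratio of 0, with upper bounds of 1.03, 1.43 and 2.17, the interval of miR-301a-3p over miR-130b-3p ran up to 0.925 and no longer included 1, the mature 5p share of miR-301 was 100%, and the full-length share was 58.8% for miR-130a-3p and 76.0% for miR-130b-3p in mature testis and 66.6% for miR-130b-3p in immature testis. Counted by sequence, 98.5% of the immature miR-130a-3p reads had the leading start. Ends were not recomputed over perfect tags, which hold none of the changed ones. Counted by sequence, the miR-301b-3p form was at or under 3 reads in both libraries and was given no ratio. At 1 to 11 mature reads a form, depth limits what can be said of the miR-301 forms.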

Other observations

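The platypus name miR-130c is 1 base away from miR-130a, T11G. Of the 63 possible single changes of the full-length miR-130a-3p tag before its last base, 58 were listed in the immature library, with a median of 5 reads over all 63 and at most 48. The T11G tag had 1 read in mature testis and 6 reads in immature testis, and 30 of the 63 changes, itself included, had as many or more in immature testis. All 63 together came to 60 reads in mature testis, or 6.22% of the unchanged tag's reads, and 571 reads in immature testis, or 6.25%.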
